A study of Mus musculus with 18 samples.

Results

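The transcription factors that make and maintain skeletal muscle were examined in hindlimb muscle of female C57BL/6J mice at 2 months (young, 2-m), 20 months (aged, 20-m) and 28 months (superaged, 28-m). They were 10 genes, taken by name from the 23420 genes of the RNA-seq table: the MyoD family Myod1, Myf5, Myf6 and Myog, the satellite cell factor Pax7, the Mef2 factors Mef2a, Mef2c and Mef2d, and Runx1 and Dach2, regulators tied to the response of muscle to loss of its nerve. Poly-A RNA of 3 mice per age was sequenced as 9 libraries, and the only difference that the labels give between the groups is age. The same tissues gave methylated DNA captured with a methyl-binding domain (MBD-seq), pooled from 3 mice per age, with splenic T cells as a second tissue. Myod1 had been examined by the study in these same libraries, so its change is not independent of that choice.

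The MyoD family are basic helix-loop-helix proteins that pair with E proteins and bind E-boxes in muscle genes, and Mef2 proteins bind beside them and are held in check by class IIa histone deacetylases. Pax7 marks the satellite cell, the resident stem cell of the fibre. In fibres that have lost their nerve, Hdac4 and Dach2 are known parts of the path to Myog and the acetylcholine receptor genes, and Runx1 rises and protects the fibre from wasting.

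The 9 libraries held 20203833 to 71115244 reads on genes. The libraries numbered 3 stood apart at each age. The 10 genes with the highest mean over all 9 libraries held 29.2% to 32.0% of their normalized counts, against 43.0% to 48.4% in the others. Every library was rich in fibre transcripts, with a summed count of 8534830 to 10897400 for 17 fibre genes. The library of 2-m replicate 1 carried marrow genes at a summed normalized count of 5650.3, where the other 8 libraries ranged from 22.4 to 94.5. All 10 factors passed the filter on low values, a mean normalized count of at least 10, and had 11 to 68258 reads in a library. Values below are normalized read counts unless a sentence says otherwise. In whole tissue, fewer cells of a type and less RNA per cell cannot be told apart.

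Levels can be set against each other only per length of exon. In 2-m muscle Mef2c led with 4132 ± 272 normalized counts per kb (SD, n = 3), followed by Myf6 with 2097 ± 124. Myod1 (589.8 ± 45.9), Mef2d (579 ± 36.6) and Mef2a (433 ± 41.8) came next, and Myod1 and Mef2d lay within their spread of each other. Myog stood at 161 ± 41.4 per kb. Pax7 (23.6 ± 3.06), Myf5 (20.4 ± 6.54), Dach2 (18.3 ± 6.27) and Runx1 (17.5 ± 4.68) were the lowest and overlapped in their spread. In 28-m muscle Runx1 had moved up to 118 ± 23.0 per kb and Dach2 to 47.0 ± 4.61, while Pax7 stood at 9.83 ± 3.43 and Myf5 at 17.0 ± 6.60. Mef2c and Myf6 kept the top places at 5446 ± 557 and 3431 ± 262.

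Against 2-m muscle, the 20-m muscle had 5 factors higher (Myf6, Mef2a, Mef2c, Runx1, Dach2) and 1 lower (Myod1) in limma with Benjamini-Hochberg adjusted p under 0.05. Over the 13178 genes tested, 9.42% were higher and 7.13% lower in that comparison. The 28-m muscle had the same 5 and Myog higher, and Myod1 lower, against 7.53% higher and 6.24% lower of all genes. Between 28-m and 20-m muscle Myog alone was called higher and no factor lower, where 0.212% of all genes were higher and 0.167% lower. With 20-m and 28-m muscle combined against 2-m muscle, 5 factors were higher and 2, Myod1 and Pax7, lower, against 11.2% higher and 8.92% lower of all genes. The 3 comparisons with 2-m muscle share its 3 libraries. An exact two-sided permutation test of a single gene cannot go below p = 0.1 with 3 libraries against 3, or below p = 0.0238 here with 6 against 3.

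**Figure D1:**
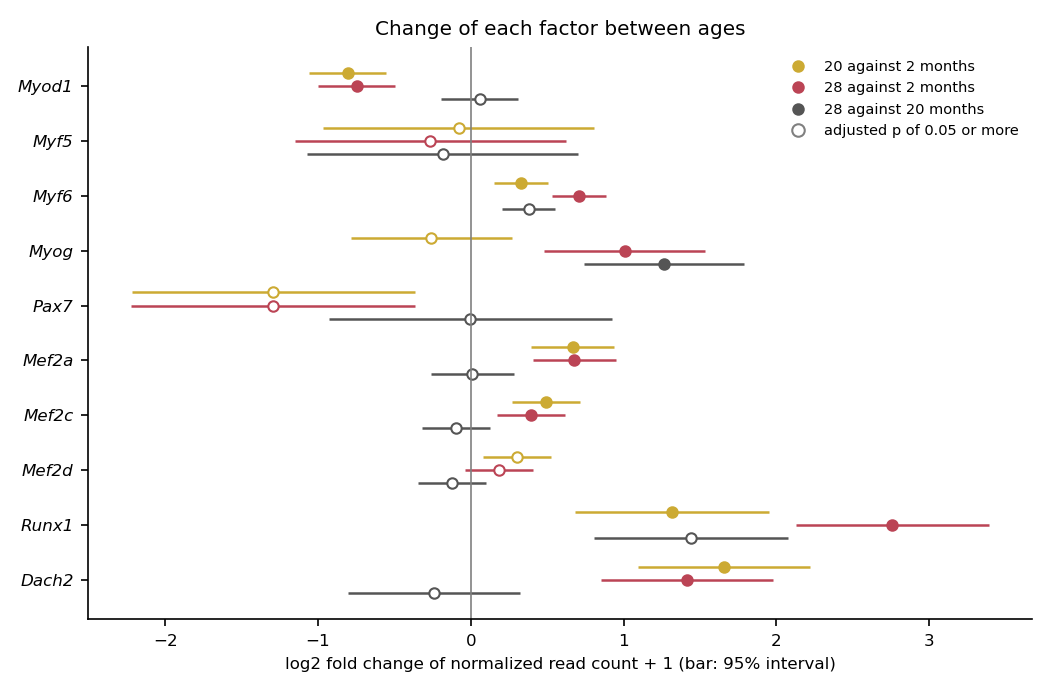
Log2 fold change (x axis, on normalized read count + 1) of each factor (y axis) at 20 against 2, 28 against 2 and 28 against 20 months, from limma over all 9 libraries. Bars are 95% intervals and open points did not pass the adjusted p of 0.05. Runx1 lies farthest to the right at 28 against 2 months, at 2.76, and Myod1 lies left of 0 against 2 months at both older ages.

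Myod1, which commits cells to muscle and is kept on in fast fibres, stood at 999, 1163 and 1119 in replicates 1, 2 and 3 of 2-m muscle. The 20-m libraries held 539.9, 682 and 661 and the 28-m libraries 695, 668 and 591. Every older library lay below every 2-m library, and the 20-m and 28-m libraries overlapped. The log2 fold change was -0.80 ± 0.12 (SE) at 20 months (adjusted p = 0.000702) and -0.75 ± 0.12 at 28 months (adjusted p = 0.00123), and the exact permutation p over 6 libraries against 3 was 0.0238. From 20 to 28 months the log2 difference was 0.06, with a 95% interval of -0.19 to 0.31. When each library was rescaled to the same sum, the call at 28 months was lost (adjusted p = 0.0689).

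Myf6, also called Mrf4, the MyoD family member most abundant in adult fibres, went the other way. It read 2532, 2548 and 2809.8 in the 3 libraries of 2-m muscle, 3439, 3251 and 3216 at 20 months, and 4342, 3955 and 4609 at 28 months. The 3 ages did not overlap. Myf6 was 1.26-fold higher at 20 months (log2 0.33 ± 0.08, adjusted p = 0.0157) and 1.63-fold higher at 28 months (log2 0.71 ± 0.08, adjusted p = 0.000149). The further step from 20 to 28 months, log2 0.38 ± 0.08, missed the threshold (adjusted p = 0.0756) and passed with a term for the libraries numbered 3 (adjusted p = 0.0308), in DESeq2 (adjusted p = 0.00336) and with quantile normalization (adjusted p = 0.0484). Without 2-m replicate 1 or 20-m replicate 1, the 20-month call was lost (adjusted p = 0.0587 and 0.0764), and it was lost with quantile normalization (adjusted p = 0.0741) and with libraries rescaled to the same sum (adjusted p = 0.468). Myf6 lies on chromosome 10 at chr10:107492848-107494723 (GRCm38, minus strand), and Myf5 lies 5920 bases away on the same strand, at chr10:107482908-107486927.

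Myf5, the earliest factor of the family and in the adult mainly a satellite cell transcript, stood at 26.7, 49.3 and 51.3 in 2-m muscle. The 20-m libraries held 26.2, 42.2 and 51.8, and the 28-m libraries 30.4, 24.9 and 51.0. The ages overlapped throughout, and replicate 3 was the highest library at each age. The log2 difference was -0.08 (95% interval -0.97 to 0.81) at 20 months and -0.26 (-1.15 to 0.62) at 28 months, with 12 to 95 reads in a library.

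**Figure D2:**
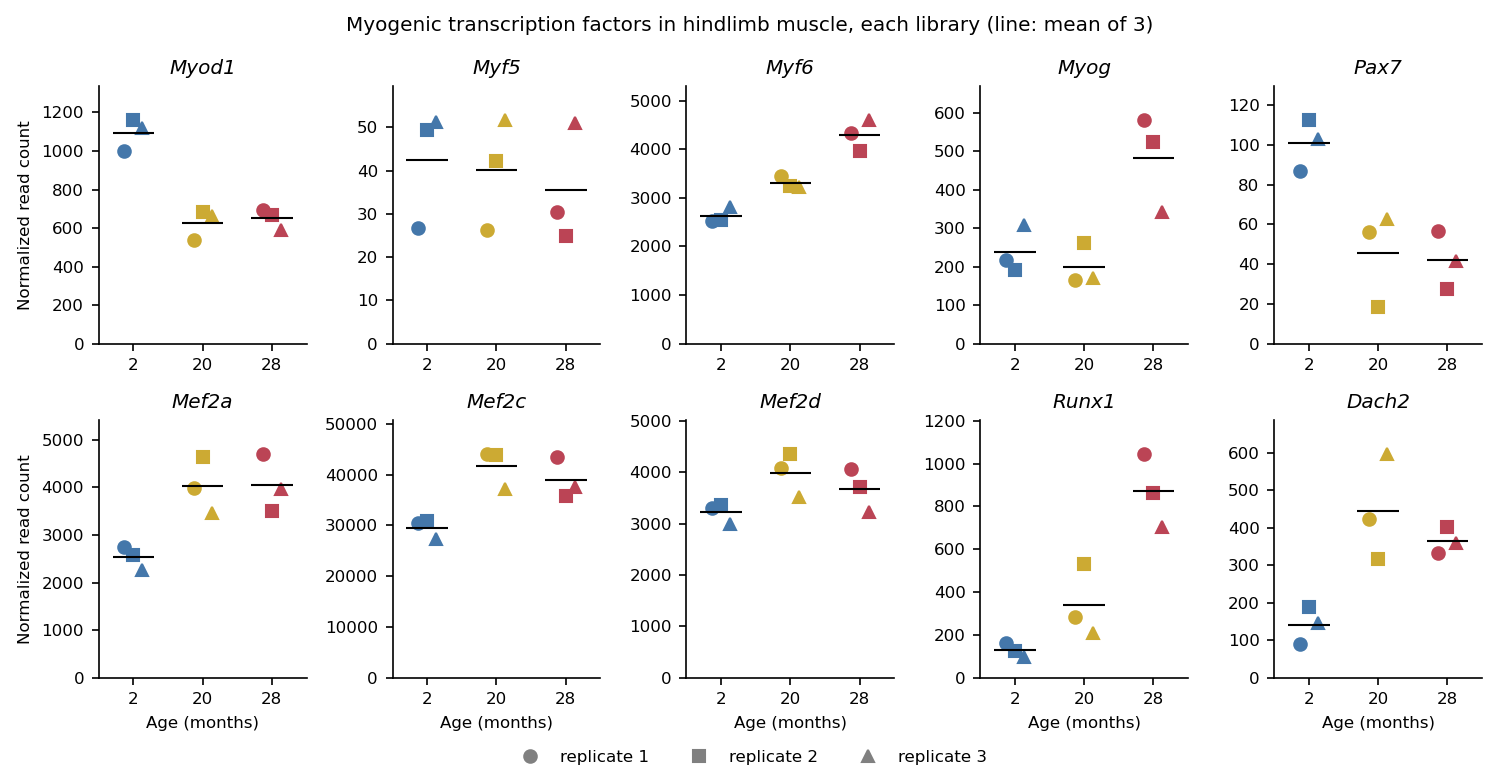
Normalized read count (y axis, linear, from 0) of each factor in each of the 9 libraries by age in months (x axis). Symbols mark the replicate number and lines the mean of 3. Runx1 rises from 96.0 to 165 at 2 months to 706 to 1046 at 28 months, and Myod1 lies at 999 or above in 2-m muscle only.

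Myog, the factor that switches on terminal differentiation and rises in denervated fibres, was higher in the oldest muscle, by a wider margin in replicates 1 and 2 than in replicate 3. Its values were 218, 190.3 and 308 at 2 months and 166, 262 and 172 at 20 months. At 28 months they were 583, 525 and 342, each above every younger library. Replicate 3 held the highest 2-m value and the lowest 28-m value. Myog was 2.01-fold higher at 28 than at 2 months (log2 1.01 ± 0.24, adjusted p = 0.0160) and 2.40-fold higher than at 20 months (log2 1.26 ± 0.24, adjusted p = 0.0473). The log2 difference from 2 to 28 months was 1.44 in the libraries numbered 1 and 2 and 0.15 in those numbered 3, and from 20 to 28 months it was 1.40 and 0.99. The call against 2 months was lost without 2-m replicate 1, 28-m replicate 1 or 28-m replicate 2 (adjusted p = 0.0581 to 0.0780). The call against 20 months was lost without any of 5 libraries, 2-m replicate 1, 20-m replicates 1 and 3 and 28-m replicates 1 and 2 (adjusted p = 0.0674 to 0.219). The same call was lost with quantile normalization (adjusted p = 0.0624) and with only replicates 1 and 2 (0.0741). A pseudocount of 0.1 (0.0537), no filter (0.0614) or a mean of at least 50 (0.0510) lost it too. At 20 months the log2 difference from 2-m muscle was -0.26, with a 95% interval of -0.78 to 0.27.

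The 250 bases before the Myog start are shown because MyoD family proteins act on this promoter and it was among the more strongly captured ones. They lie at chr1:134289754-134290003 (GRCm38.p6, plus strand, sequence from RefSeq), and capitals mark the E-boxes, CANNTG on either strand.
Myog: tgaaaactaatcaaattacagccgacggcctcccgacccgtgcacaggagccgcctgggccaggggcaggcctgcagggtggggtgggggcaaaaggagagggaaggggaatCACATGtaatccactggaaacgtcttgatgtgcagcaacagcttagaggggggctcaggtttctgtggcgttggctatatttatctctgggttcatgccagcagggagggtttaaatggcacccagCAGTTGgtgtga
The 2 E-boxes began 138 and 12 bases before the start, and 66.2% of the 32851 RefSeq promoter windows of this length held at least 1. The window held 7 CpG dinucleotides, the unit that the capture reads when methylated, against a median of 6 over all windows. The 5 bins within 1000 bases of the Myog start had a mean capture signal of 33.8 normalized counts per 500-bp bin in 2-m muscle, higher than at 90.6% of genes, 26.1 in 20-m and 19.0 in 28-m muscle. In T cells, a cell type outside the muscle lineage, the signal was 56.8 at 2 months and 62.9 at 28 months.

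The family shifted in its make-up. Per kb of exon, Myf6 made up 73.1% ± 1.04 (SD, n = 3) of the summed MyoD family level in 2-m muscle, 84.2% ± 2.39 at 20 months and 83.1% ± 2.94 at 28 months. Myod1 made up 20.6% ± 1.5, then 10.8% ± 1.40 and 8.54% ± 0.929. The share of Myog was 5.59% ± 1.10, 4.31% ± 1.12 and 7.95% ± 2.18, and Myf5 made up 0.307% to 0.842% of the sum in every library. The summed family level was 2869 ± 186 normalized counts per kb in the young, 3126 ± 55.7 in the aged and 4125 ± 211 in the superaged muscle. The ratio of Myf6 to Myod1 counts lay between 2.19 and 2.54 in 2-m libraries and between 4.77 and 7.80 in the older ones, which did not overlap with them.

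**Figure D3:**
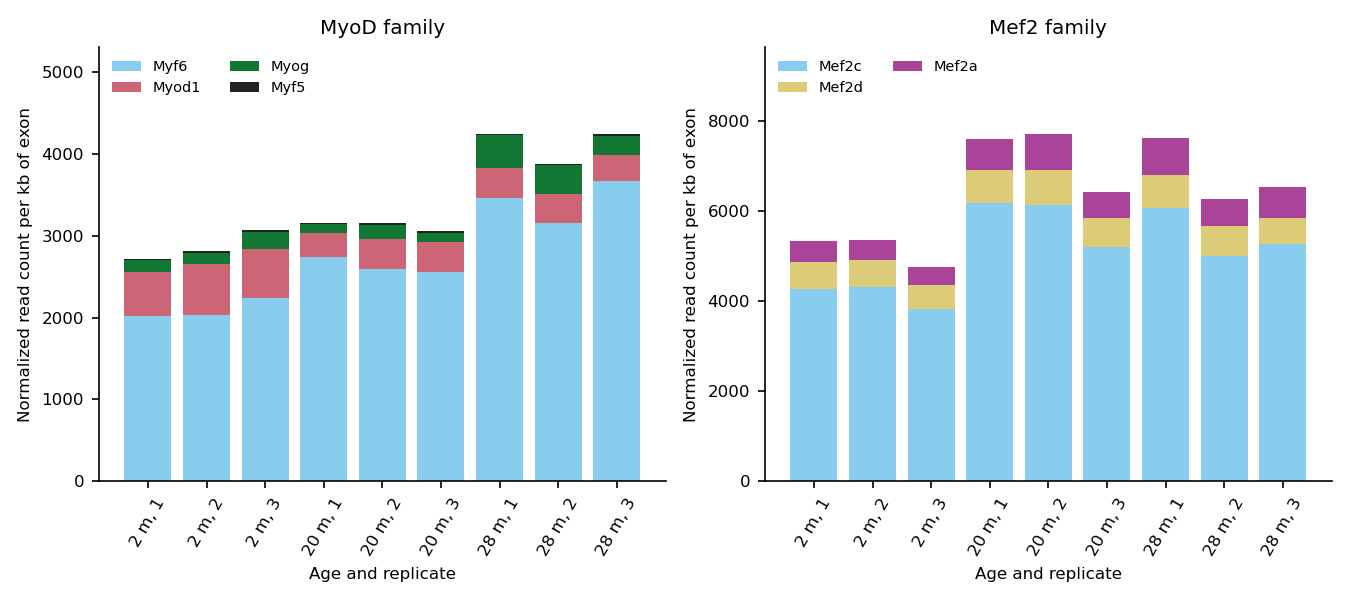
Normalized read count per kb of exon (y axis, linear, from 0) of the MyoD family (left) and the Mef2 family (right), stacked for each library (x axis, age in months and replicate). The red Myod1 band is narrower in all 6 older libraries, and Mef2c fills 79.5% to 81.3% of every Mef2 bar.

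Pax7 was lower with age from a low level. The 2-m libraries held 86.9, 113 and 103, the 20-m libraries 56.0, 18.6 and 62.7, and the 28-m libraries 56.9, 27.6 and 41.5. All 6 older libraries lay below the 3 young ones, and replicate 2 was the lowest at both older ages. Over both older ages the log2 fold change was -1.29 ± 0.37 (adjusted p = 0.0276), with 11 to 143 reads in a library. Against 2 months alone, neither 20 months (log2 -1.29 ± 0.43, adjusted p = 0.0572) nor 28 months (log2 -1.30 ± 0.43, adjusted p = 0.0638) passed. Both passed in DESeq2 (adjusted p = 0.0361 and 0.0186), and the 20-month one with a term for the libraries numbered 3 (adjusted p = 0.0490). The call over both ages was lost without any 2-m replicate or 28-m replicate 2 (adjusted p = 0.0564 to 0.0785), while the 20-month comparison passed without 20-m replicate 3 (adjusted p = 0.0405) and the 28-month comparison without 20-m replicate 2 (adjusted p = 0.0183).

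Of 18 satellite cell genes tested, Pax7 included, 9 fell and 2 rose in the older ages combined, where 8.92% of all genes were lower and 11.2% higher, with a median log2 change of -0.71 against -0.02 over all genes. Edn3 (36.1 normalized counts at 2 months, 6.20 at 20 and 7.0 at 28), the receptor gene Fgfr4 (119.9, 62.4 and 37.7) and the transcription factor gene Sox8 (58.8, 22.6 and 25.5) had the largest log2 changes of the genes called, -2.38 ± 0.61, -1.31 ± 0.28 and -1.31 ± 0.36 (adjusted p = 0.0156, 0.00560 and 0.0227). Edn3 lay under the filter of 10 at both older ages and was tested through its 2-m level, so its call and place are a description. Without 2-m replicate 1, the library with marrow genes, 4 of the 18 fell, and 4 fell with only replicates 1 and 2 of each age. The 2 that rose, Itga7 and Des, were named after their values were seen. Which cells made the transcripts of this list was not tested. Of 9 fibroblast genes tested, 3 were lower in the older ages, 6 were not called and the median log2 change was -0.31, with Col1a1 at 25317 normalized counts in 2-m muscle against 2046 and 2276. The part of this in the satellite cell genes was not tested.

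Mef2a and Mef2c rose at both older ages by less than 2-fold. Mef2c, the most abundant of them in muscle, read 30534, 30804 and 27308 at 2 months, 44098, 43837 and 37188 at 20 months, and 43433, 35803 and 37622 at 28 months. Mef2a read 2748, 2573 and 2266, then 3986, 4650.1 and 3468, then 4706, 3508 and 3969. For both genes each older library exceeded each young one. Mef2a was 1.59-fold higher at 20 months (log2 0.67 ± 0.13, adjusted p = 0.00388) and 1.60-fold at 28 months (log2 0.68 ± 0.13, adjusted p = 0.00384). Mef2c was 1.41-fold higher at 20 months (log2 0.49 ± 0.10, adjusted p = 0.00664) and 1.32-fold at 28 months (log2 0.40 ± 0.10, adjusted p = 0.0230). The Mef2c call at 28 months was lost without any of 4 libraries, 2-m replicates 1 and 3 and 28-m replicates 1 and 3 (adjusted p = 0.0528 to 0.106), and both of its calls were lost with libraries rescaled to the same sum (adjusted p = 0.143 and 0.276).

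Mef2d read 3312, 3366 and 2989.5 at 2 months, 4091, 4358 and 3524 at 20 months and 4065, 3707 and 3229 at 28 months. The 20-m libraries lay above the young ones and the 28-m libraries overlapped with them. Its log2 differences of 0.30 ± 0.10 (adjusted p = 0.0603) and 0.18 ± 0.10 (adjusted p = 0.273) did not pass, though the 20-month one did without 20-m replicate 3 or 28-m replicate 3 (adjusted p = 0.0321 and 0.0479), with only replicates 1 and 2 (0.0498), with a term for the libraries numbered 3 (0.00671) and in DESeq2 (0.0368). Over both older ages Mef2d passed with that term (adjusted p = 0.00848). Exons of Mef2c overlap Gm52043 and Gm52044, and those of Mef2d overlap 1700113A16Rik, on the other strand. Mef2c made up 80.3% ± 0.265, 80.6% ± 0.941 and 80.1% ± 0.502 of the summed Mef2 level per kb at the 3 ages in order, and the share of Mef2a went from 8.41% ± 0.356 to 10.2% ± 0.544.

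Some genes that restrain Mef2 rose as well. Of 8 class IIa deacetylases and corepressors, 4 rose in the older ages combined and none fell, with a median log2 change of 0.21 against -0.02 over all genes. The corepressor gene Nrip1 went from 637 normalized counts at 2 months to 1427 and 1383 (log2 1.14 ± 0.15, adjusted p = 0.000262). Hdac9 went from 339 to 575 and 609 (log2 0.81 ± 0.11, adjusted p = 0.000269), and Hdac4 from 746 to 1039.95 and 1405 (log2 0.70 ± 0.16, adjusted p = 0.00859). Of 16 Mef2 coactivators and kinases, 3 rose and 2 fell, where 11.2% of all genes were higher and 8.92% lower. Without 2-m replicate 1 it was 1 and 1, and with only replicates 1 and 2 of each age 2 rose and none fell. The calcium/calmodulin kinase genes split: Camk2b rose from 6153 to 9797 and 9681 (log2 0.66 ± 0.07), Camk2d rose (log2 0.32 ± 0.10), Camk2a fell from 16939 to 13739 and 11711 (log2 -0.41 ± 0.09), and Camk2g, named after its values were seen, fell (log2 -0.20 ± 0.06, adjusted p = 0.0381).

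Runx1 had the largest change of the 10 factors at 28 against 2 months. At 20 months Dach2 had a larger change over the 3 libraries, but in those numbered 1 and 2 the log2 differences lay close, 1.42 for Runx1 and 1.47 for Dach2. Runx1 read 165, 127 and 96.0 in 2-m muscle, 284, 529.8 and 209 at 20 months, and 1046, 863 and 706 at 28. The 3 ages did not overlap, and 20-m replicate 2 stood well above the other 20-m libraries. Runx1 was 2.49-fold higher at 20 months (log2 1.32 ± 0.29, adjusted p = 0.00971) and 6.77-fold at 28 months (log2 2.76 ± 0.29, adjusted p = 9.5e-05). The step from 20 to 28 months, 2.72-fold (log2 1.44 ± 0.29), missed the threshold (adjusted p = 0.0655). It passed with a term for the libraries numbered 3 (adjusted p = 0.00825), in DESeq2 (adjusted p = 0.0362), with libraries rescaled to the same sum (adjusted p = 0.00241), and without 2-m replicate 2, 2-m replicate 3 or 20-m replicate 2 (adjusted p = 0.0103 to 0.0462). Within the libraries numbered 1 and 2 the log2 difference from 2 to 28 months was 2.71, and within those numbered 3 it was 2.87.

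Runx1 is also a gene of blood cells. The 13 white blood cell genes summed to 3836 to 5087 in 2-m libraries, 3378 to 3422 in 20-m and 3759 to 4973 in 28-m libraries. In the older ages combined, none of the 11 tested rose and 1 fell, Spi1 (log2 -1.30 ± 0.36, adjusted p = 0.0233), a share near the 8.92% of all genes. None was called in that contrast without 2-m replicate 1 or with only replicates 1 and 2. At 20 against 2 months 3 of the 11 fell, where 7.13% of all genes were lower, and at 28 against 2 months none was called. The Runx1 partner gene Cbfb, which together with the Runx family was listed among upstream regulators, stood at 5832, 5967 and 4803 and was not called. Runx2 stood at 55.3, 22.8 and 36.0 and was not called, and Runx3, at 5.75, 5.07 and 2.98, did not pass the filter.

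Runx1 (chr16:92601466-92826074, GRCm38, minus strand) has a distal and a proximal start 128745 bases apart, and the capture signal around them differed in opposite ways between tissues. Around the distal start, 2-m muscle had 51.3 normalized counts per bin and T cells 3.25. Around the proximal start, muscle had 1.27 and T cells 12.8. In 28-m muscle the signals were 29.8 and 3.82, and in 28-m T cells 7.93 and 26.4. The upstream 250 bases of both are shown because they hold very different numbers of CpG, marked by capitals (RefSeq, GRCm38.p6, minus strand), with the distal window at chr16:92826075-92826324 and the proximal window at chr16:92697330-92697579.
Runx1 distal: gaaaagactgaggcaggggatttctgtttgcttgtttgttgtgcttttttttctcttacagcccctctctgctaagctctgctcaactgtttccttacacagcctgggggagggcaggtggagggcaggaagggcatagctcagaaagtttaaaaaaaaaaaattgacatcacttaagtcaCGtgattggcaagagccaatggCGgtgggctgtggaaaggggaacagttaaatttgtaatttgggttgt
Runx1 proximal: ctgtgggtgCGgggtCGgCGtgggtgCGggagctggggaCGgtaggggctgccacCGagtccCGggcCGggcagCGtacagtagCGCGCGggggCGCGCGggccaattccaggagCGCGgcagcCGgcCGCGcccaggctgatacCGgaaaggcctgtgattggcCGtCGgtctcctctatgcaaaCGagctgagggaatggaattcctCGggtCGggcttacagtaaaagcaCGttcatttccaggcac
The distal window held 2 CpG, more than 18.8% of all promoter windows, and the proximal window 27, more than 91.4%. A library of whole-gene counts does not say which start the Runx1 reads came from.

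Dach2, a corepressor known to hold Myog down and to be lowered in denervated fibres, had 91.4, 189 and 146 in 2-m muscle. It had 424, 316 and 597 in 20-m muscle and 332, 403 and 360.5 in 28-m muscle. All older libraries lay above all young ones, and the older ages overlapped. Dach2 was 3.15-fold higher at 20 months (log2 1.66 ± 0.26, adjusted p = 0.00125) and 2.67-fold at 28 months (log2 1.41 ± 0.26, adjusted p = 0.00367), and both calls held in all 23 alternative analyses of each comparison. Its paralogue Dach1 stood at 252, 277 and 337 and was not called (log2 0.26 ± 0.15 for both older ages).

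Genes of the denervation response rose in old muscle. Of 20 such genes, Myog, Runx1 and Dach2 among them, 16 rose and none fell in the older ages combined, where 11.2% of all genes were higher, and the median log2 change was 0.76 against -0.02 over all genes. Without the 3 factors it was 14 of 17, and without 2-m replicate 1, or with only replicates 1 and 2, it was 15 of 20 (in the second case 1 gene fell). At 20 months 12 of the 20 rose and none fell, and at 28 months 15 rose and 1, Prkab2, fell, where 9.42% and 7.53% of all genes were higher. Dach2 rose although it is known to fall on denervation. The largest changes were in Sln, which encodes sarcolipin, a regulator of the calcium pump (56.4, 605 and 2045 normalized counts at 2, 20 and 28 months), in Chrng, the fetal acetylcholine receptor subunit (3.90, 27.3 and 31.7) and in the embryonic myosin gene Myh3 (417, 1565 and 2397). Their log2 changes were 4.55 ± 0.32, 2.96 ± 0.74 and 2.20 ± 0.11 (adjusted p = 2.86e-06, 0.0143 and 4.34e-07). The adult subunit Chrne stood at 357, 333 and 372 and was not called. Like Myog, Gadd45a stood apart at 28 months, with 1114, 1052 and 2643, and these 2 were the only genes of the list called between 20 and 28 months. The 2-m mean of Chrng lay under the filter of 10, so it was tested through the older groups, and its call and place are a description. Chrne, Gadd45a and Prkab2 were named after their values were seen.

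**Figure D4:**
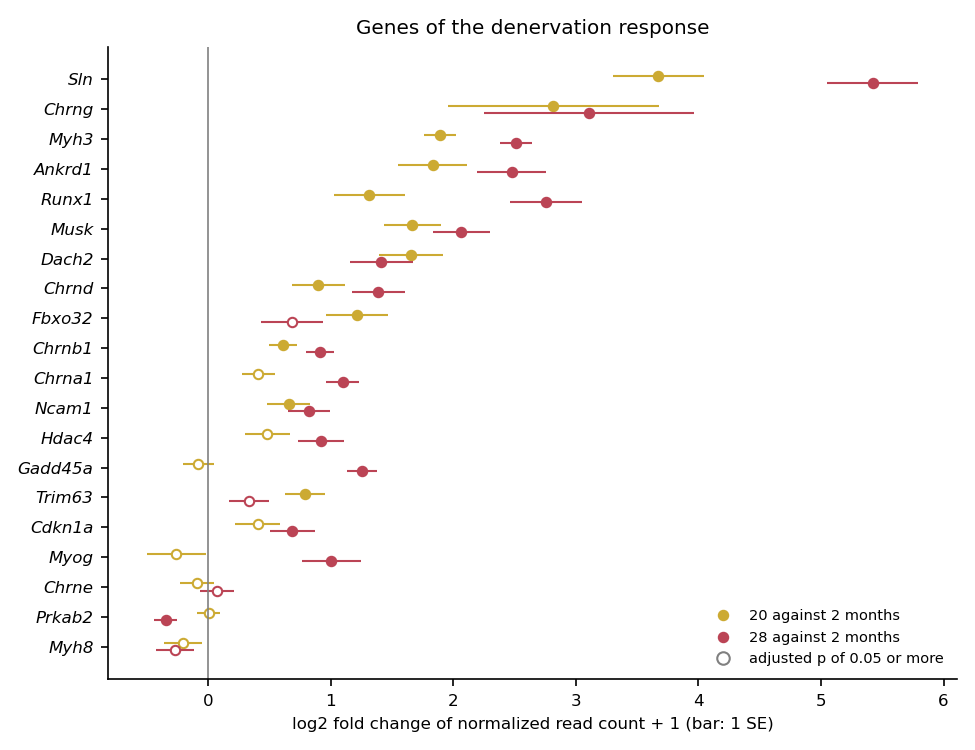
Log2 fold change (x axis, on normalized read count + 1) of the 20 genes of the denervation response (y axis), at 20 and 28 against 2 months. Bars are 1 SE and open points did not pass the adjusted p of 0.05. Sln and Chrng lie farthest to the right, at 5.42 and 3.11 at 28 months, and Chrne and Myh8 lie near 0.

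Of the partners and inhibitors of the MyoD family, few were called. None of the 3 E protein genes Tcf3, Tcf4 and Tcf12 was called in any comparison. Of 15 inhibitors tested, 3 fell and none rose in the older ages combined, where 8.92% of all genes were lower and 11.2% higher: Twist1 (107 to 31.8 and 32.8, log2 -1.67 ± 0.31, adjusted p = 0.00274), Heyl (log2 -0.67 ± 0.15) and Bhlhe41 (log2 -0.31 ± 0.10). Id1, Id2, Id3 and Id4, which bind E proteins away from the MyoD family, were not called. Of 26 upstream regulators tested, 2 rose, Tead4 (log2 0.85 ± 0.19) and Eya4 (log2 0.40 ± 0.12), and 1 fell, Pitx3 (log2 -0.45 ± 0.13), both smaller shares than over all genes. With only replicates 1 and 2 none of the 26 was called, and without 2-m replicate 1 none fell.

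Of 20 target genes tested, 7 rose and 3 fell in the older ages combined, against 11.2% higher and 8.92% lower of all genes, with a median log2 change of -0.22 against -0.02. Without 2-m replicate 1, 6 rose and 2 fell. With only replicates 1 and 2 of each age, 5 rose and 1 fell of 19 tested. The largest changes called were in Myh3 (log2 2.20 ± 0.11), which also stands in the denervation list, the thin filament gene Lmod2 (log2 1.38 ± 0.21) and the dystrophin gene Dmd (log2 0.80 ± 0.14).

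The slow fibre genes moved with the age groups. All 10 rose in the older ages combined, with a median log2 change of 2.51 (9 rose without 2-m replicate 1, and 3 with only replicates 1 and 2), and their sum lay between 17796 and 138984 in 2-m libraries, 188723 and 330458 in 20-m libraries and 233094 and 292724 in 28-m libraries. Myh7, the slow myosin, stood at 18625 at 2 months against 86998 and 100291. In 2-m replicates 1, 2 and 3 the slow sum was 17796, 138984 and 34982. Myod1 was 999, 1163 and 1119 in them, and Myf6 was 2532, 2548 and 2810. Fast and slow fibres differ in their levels of MyoD family transcripts, and the part of fibre type in the changes of the 10 factors was not tested. In the same contrast, Schwann cell genes had 2 of 8 lower and none higher. Adipocyte genes had 4 of 6 lower, marrow genes 1 of 9 lower and bone and cartilage genes 1 higher and 1 lower of 7. The lower marrow gene, Mpo, and the lower cartilage gene, Col2a1, lay under the filter of 10 at both older ages and were tested through their 2-m level, and both were named after their values were seen. Of 8 endothelial, 8 smooth muscle and 4 red blood cell genes tested, none passed. Without 2-m replicate 1, 2 of 3 red blood cell genes tested rose, and 2 of the 6 adipocyte genes, 1 of the 8 Schwann cell genes and 0 of 2 marrow genes tested fell. Of 17 fibre genes 2 rose and 4 fell, and without 2-m replicate 1 it was 1 and 3. With only replicates 1 and 2 of each age none of them rose and 2 fell. Over all genes 11.2% were higher and 8.92% lower in this contrast, and the marrow, bone and cartilage counts and the number of fibre genes that rose lie near these shares.

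Across the 9 libraries, the genes most like each factor in log2 level were found by Pearson correlation, as a description over points that share age and library. Ncbp2 was nearest to Myod1 (r = 0.972), Nfkb2 to Myf6 (0.980), Ube2z to Myog (0.942), Luc7l to Myf5 (0.972) and Oraov1 to Pax7 (0.944). Garem was nearest to Mef2a (0.983), Grlf1 to Mef2c (0.992), Zfp622 to Mef2d (0.967), Cpne2 to Runx1 (0.972) and A730036I17Rik to Dach2 (0.980). No factor was among the 3 nearest of another.

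Captured methylated DNA gave a second readout at the same genes, with a mean over the 500-bp bins that overlap 1000 bases either side of the 5′ end of the gene in the annotation. For Mef2a this end lies 3598 bases from its only curated RefSeq transcript start, and for the other 9 factors within 1000 bases of one. The table holds 1 column per age and tissue, without a replicate, so that a difference is given as a ratio with no test. The labels list 2 muscle captures per age, and the columns do not say which of them they hold. In 2-m muscle the signal was highest at Runx1 (51.3 normalized counts per bin), Myf5 (48.9), Mef2a (38.8), Myog (33.8) and Dach2 (20.9), where the median over 21511 protein-coding genes was 8.73. It was 18.9 at Myf6, 9.64 at Mef2c, 9.28 at Pax7, 8.01 at Myod1 and 0.455 at Mef2d, of which 4 bins were in the table. This order holds for the gene ends alone. At curated starts the 2-m muscle signal was 1.27 for Mef2a, 54.9 for Myf5, and 32.9 and 40.2 for Dach2. Myod1 lay above 46.9% of genes, Mef2c, the most abundant factor, above 53.2%, and Myf6 above 75.5%.

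Between 2-m muscle and 2-m T cells, 2 of the 10 gene ends were more than 2-fold higher in muscle, Runx1 (log2 3.62) and Pax7 (1.21), against 6.86% of all genes. More than 2-fold lower in muscle were 2, Mef2c (-1.17) and Myod1 (-1.003), against 9.95% of all genes. The Pax7 and Myod1 windows held few reads, 51 and 44 in muscle and 17 and 84 in T cells, and with 5 added to each value in place of 1 only Runx1 remained past 2-fold. Some other curated starts ran the opposite way. The Pax7 start 562 bases inside the gene had 3.09 in muscle and 4.26 in T cells, and Mef2c starts 19639 and 20726 bases inside the gene had 8.01 and 8.19 in muscle against 1.02 and 0.812 in T cells, while the one 69590 bases inside ran the same way as the first (9.83 and 20.3). The other 6 sites at gene ends lay within 2-fold of T cells, among them Dach2 with 20.9 in muscle and 19.1 in T cells and Mef2a with 38.8 and 41.4.

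Between 28-m and 2-m muscle, 2 of the 10 were more than 2-fold higher, Mef2d (0.455 to 2.87, log2 1.41) and Mef2c (9.64 to 21.2, log2 1.06), against 20.7% of all genes. The Mef2d window held 2 reads in 2-m muscle, and with 5 added to each value its log2 ratio was 0.53. At the Mef2c starts 19639 and 20726 bases inside the gene the signal went from 8.01 to 5.48 and from 8.19 to 6.12. Myf5 was more than 2-fold lower (48.9 to 23.3, log2 -1.04), against 3.88% of all genes, and in all 5 alternative settings it stayed lower but within 2-fold (log2 -0.61 to -0.99). As deposited, the 5 gene ends with the highest signal in 2-m muscle were lower at 28 months, to 29.8 at Runx1, 28.8 at Mef2a, 19.0 at Myog and 16.1 at Dach2, whereas the curated Mef2a start went from 1.27 to 3.95 and the proximal Runx1 start from 1.27 to 3.82. With libraries rescaled to the same sum, Mef2a and Dach2 were not lower (log2 0.02 and 0.06), and within 500 bases Dach2 was not (log2 0.27). Over all genes the middle of the distribution narrowed in the 28-m muscle column, with quartiles of 7.27 and 16.4 against 3.64 and 18.6 at 2 months, and in T cells they were 3.97 and 29.6 against 3.86 and 21.5. The part of this narrowing in the values of the factors was not tested. Myod1 went from 8.01 to 15.0 in muscle and from 17.1 to 33.3 in T cells. In 20-m muscle the Myod1 signal was 6.57. A link between the capture signal and Myod1 RNA was not tested.

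**Figure D5:**
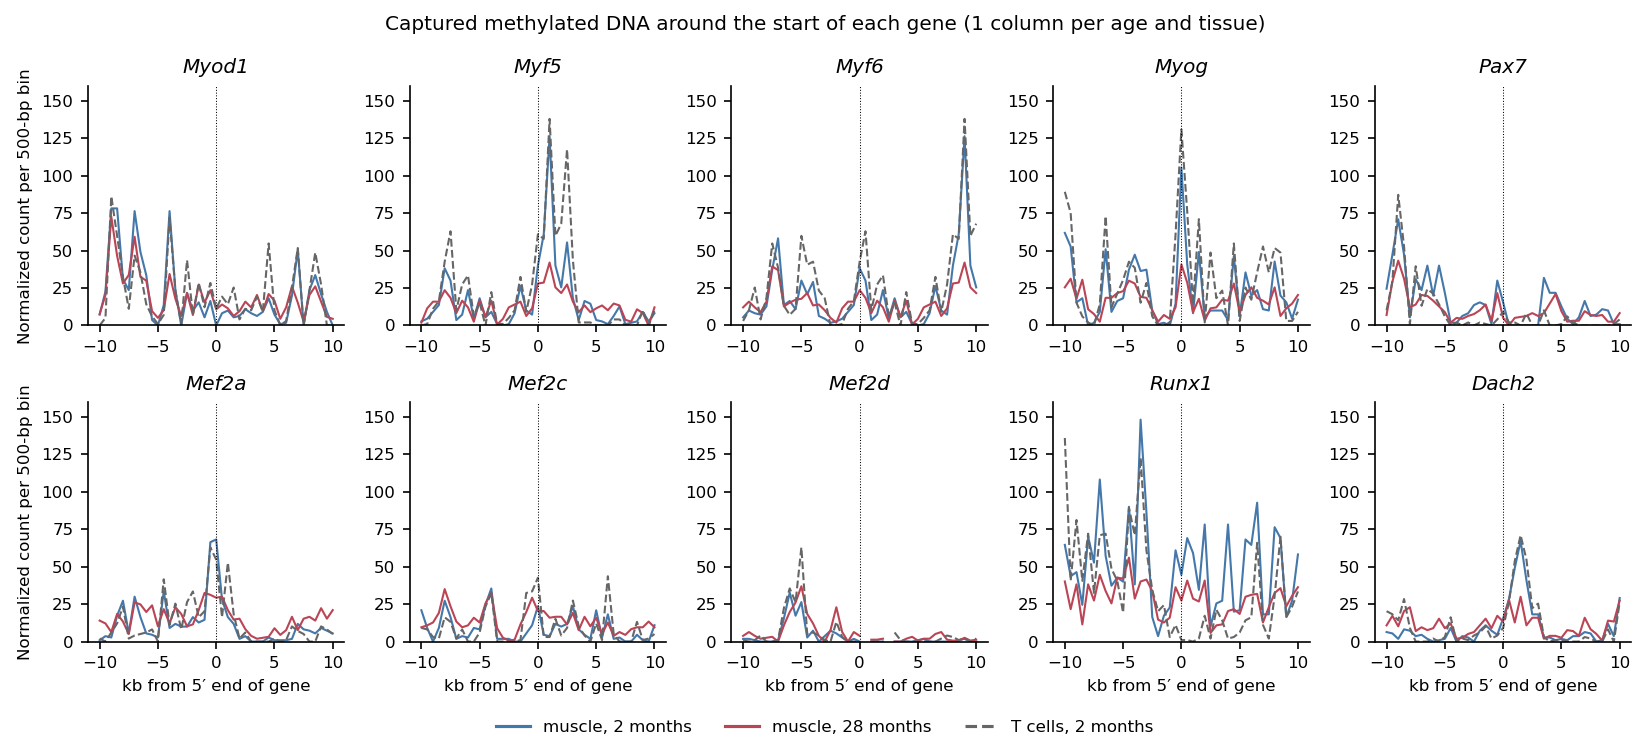
Normalized MBD-seq count per 500-bp bin (y axis, same scale in all panels) by distance from the 5′ end of each gene (x axis, kb along the gene) in 2-m muscle, 28-m muscle and 2-m T cells. The peak at the Myog start reaches 106 at 2 and 40.8 at 28 months, and the peak 9 kb into the Myf6 panel is that of Myf5. From 0 to 1.5 kb after the Runx1 start, 2-m muscle has 34.6 to 69.1 and 2-m T cells 0 to 2.03. Farther in T cells have signal too, with 66.0 at 6.5 kb.

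Promoter windows of 250 bases were held for 8 of the 10 factors, 12 windows in all. E-boxes were in 5 of the 12, at Myog, Mef2c, Runx1 distal and Dach2, a smaller share than the 66.2% of all windows. The motif TGTGGT or TGCGGT of Runx proteins, on either strand, was in 2, at Myf5 and Dach2, and in 18.6% of all windows. CpG numbers ran from 1 at the first Mef2c start to 27 at the proximal Runx1 start.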

How the data were processed

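RNA-seq came from hindlimb muscle of 3 mice at each of 2, 20 and 28 months and MBD-seq from muscle and T-cell DNA pooled by age. The signal in both deposited tables is a read count per refSeq gene or per 500-bp bin divided by the DESeq2 size factor of the library, as made by the authors, who trimmed reads with Trim Galore, aligned MBD reads with Bowtie2 and RNA reads to mm10, and counted with htseq-count and bedtools. For the RNA reads the study's methods name Hisat2 and the submitters' processing notes list TopHat, and which of them made the table is not known. Reads that map to several places were not counted, and the strand setting of the counting is not given in the sources used here. Every nonzero RNA value was a whole multiple of the value of 1 read (100% within 0.01), which gave back the reads, with 20203833 to 71115244 on genes. Mates appear to be counted singly, so reads are not independent molecules, and depth covers counting error only. The 5 summary lines of htseq-count were left out, and 12.5% to 18.0% of reads per library fell in no gene.

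Log2 of the normalized count plus 1 of all 9 libraries was fitted in limma 3.58.1 (R 4.3.3, limma-trend, age as the only term) over the 13178 genes with a mean of at least 10, with Benjamini-Hochberg adjustment over all of them. Fold changes on this scale understate the change of low genes. SE is that of the moderated fit. Where nothing says more of the mice, p-values measure the spread between these samples. Exact two-sided permutation tests of single genes used scipy 1.17.1. Levels per kb used the union of RefSeq exons (GRCm38.p6). Capture signal was averaged over the bins that the table holds and read as log2 of the mean plus 1, for genes with at least 3 bins. Promoter sequences came from RefSeq. The script was tested on simulated data.

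The 10 factors, the gene lists and the tests were chosen with earlier results of these data known. Named were the 10 factors, up to 3 genes of each list with the largest absolute log2 change among those called in both older ages against 2 months, the nearest genes by Pearson r, and others where said. Of the lists, 1 globin gene did not match the table. A further gene of the denervation list is not reported here and was left out of its counts. Alternatives were other pseudocounts, filters, scalings, count models on the recovered reads (edgeR 4.0.16, DESeq2 1.42.0), a block or term for replicate number, subsets of libraries and another call rule.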

Additional observations from a re-analysis of the deposited data

How the results depend on the processing

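Of 906 expression values of the 10 factors under alternative settings, 828 kept their side of the threshold. Of the rest, 45 fell short of it and 33 newly passed it, and 0 changed the sign of a call. Some differences that were not called changed sign, such as Myf5 at 20 against 2 months (log2 -0.375 to 0.192). With each of the 9 libraries left out, the number of factors called was 5 to 8 at 20 against 2 months, 5 to 8 at 28 against 2 months, 6 to 8 for both older ages and 0 to 2 at 28 against 20 months. The last comparison depended most on the settings: its single call became 0 with a pseudocount of 0.1, without a filter, with a mean of at least 50 or with only replicates 1 and 2, became 2 with libraries rescaled to the same sum, and became 3 with DESeq2 or with a term for the libraries numbered 3. An unadjusted p under 0.05 with a fold over 2 gave 3, 4 and 2 factors at 20 against 2, 28 against 2 and 28 against 20 months and 3 for both older ages, since Myod1, Myf6, Mef2a and Mef2c changed by less than 2-fold. Rescaling to the same sum gave 4 for both older ages, without Myf6, Pax7 and Mef2c.

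The labels do not say whether replicate numbers pair the libraries. Deviations from the age means correlated at r = 0.109 to 0.161 among libraries numbered 3. Among those numbered 1 or 2, r was -0.040 to 0.0998. With 3 libraries per age these values cannot decide whether the libraries were paired. With the replicate block, the factors called were 8, 8, 3 and 8 at 20 against 2, 28 against 2 and 28 against 20 months and for both older ages, with Pax7, Mef2d, Runx1 and Myf6 gained in 1 or more of them and none lost.

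Over all genes, the number called ranged from 586 to 3000 at 20 against 2 months (2181 as reported), 554 to 2529 at 28 against 2 months (1814), 11 to 228 at 28 against 20 months (50) and 673 to 3370 for both older ages (2649), lowest with the same sum, the fold rule or only replicates 1 and 2.

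The number of start sites past 2-fold between muscle and T cells, 4 as reported, was 2 with bins within 2500 bases, 1 with a pseudocount of 5 and 2 with the same sum. Between 28-m and 2-m muscle, 3 as reported, it was 1 with bins within 500 bases, 1 with bins within 2500 bases and 0 with a pseudocount of 5. At the curated start with the lowest 2-m muscle value both numbers were 3, but directions turned: the log2 ratio of muscle to T cells became -0.36 at Pax7, 2.16 at Mef2c and -2.60 at Runx1, and that of 28-m to 2-m muscle became -0.47 at Mef2c, 1.12 at Mef2a, 1.09 at Runx1 and 0.42 at Pax7. With the longest transcript as length, Mef2c stood at 4580 normalized counts per kb at 2 months. Myf5 and Pax7 rest on few reads. Counts of list genes without 2-m replicate 1 or the libraries numbered 3 were chosen after seeing the data.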
